A study of Mus musculus with 6 samples.

Results

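The genes described are the protein-coding members of the amino acid transporter families Slc1, Slc3, Slc6, Slc7, Slc36, Slc38 and Slc43. They were picked by gene symbol and biotype in the gene table, a rule that uses no measured value. The families themselves were chosen with earlier results of these data known. The rule gave 64 genes among the 54532 genes of the table, of which 22046 were annotated as protein coding. Another 3 rows with such a name were antisense transcripts with 3 reads or fewer in every library and were left out. One of the 64 genes, Slc7a6os, carries the name because it lies next to Slc7a6 on the other strand, and codes for a nuclear import factor of RNA polymerase II. RNA sequencing was done on mouse aortic smooth muscle cells (MASMCs) of wild-type genotype, cultured from the abdominal aorta in DMEM with fetal bovine serum. The cells received an adenovirus with a control plasmid (Ad-Con, n = 3 libraries) or with an overexpression plasmid for PDK4 (Ad-PDK4, n = 3 libraries), the mitochondrial kinase that inhibits pyruvate dehydrogenase. The study's text states that cells of both groups were then exposed to Ang II, which the labels do not mention. Its methods also state that MASMCs were deprived of serum for in vitro experiments, without naming these libraries. The comparison asked how the expression of these carriers differed between cells given either virus.

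Amino acids cross the membranes of cells and lysosomes through carriers, and these families hold most of the carriers known in mammals. Slc3a2 (CD98 heavy chain) brings light chains of the Slc7 family to the plasma membrane, where most of them exchange one amino acid for another. The cationic carriers of Slc7 take up arginine, lysine and ornithine, and arginine is the substrate of both nitric oxide synthase and arginase. Slc1 and Slc38 carriers use the sodium gradient to load cells with glutamate, glutamine, alanine and serine, and some Slc36 and Slc38 carriers sit on lysosomes, where they report amino acids to the kinase complex mTORC1. When amino acids run short, the transcription factor ATF4 raises the mRNA of several carriers together with enzymes that make amino acids. In vascular smooth muscle, arginine uptake has been studied as a source for nitric oxide and polyamines.

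The libraries held 17588942 to 21861872 reads assigned to genes, and 19650 to 20615 genes had at least 1 read. The mRNA of the targeted gene, Pdk4, did not rise in the libraries labelled Ad-PDK4. It stood at 9.50, 10.4 and 10.1 FPKM (fragments per kilobase of gene length, scaled to the size of the library) in Ad-Con and at 7.67, 7.40 and 7.38 FPKM in Ad-PDK4, a log2 fold change of -0.42 (SE 0.06, adjusted p = 0.0011). These values count reads assigned to the mouse gene. Whether transcripts made from the virus would be counted there is not given in the sources used here. The group names below are therefore those of the labels, and the direction of every difference is that between libraries labelled Ad-PDK4 and libraries labelled Ad-Con. Of 11 smooth muscle markers, 5 had a mean of at least 0.5 FPKM, and the defining markers Myh11 and Myocd had at most 10 and 5 reads in any library. Tagln had 4 to 20 reads and Cnn1 8 to 30 reads over the libraries. Mylk stood at 0.60 to 0.85 FPKM in Ad-Con and 0.10 to 0.14 FPKM in Ad-PDK4. The list summed to 172 to 173 FPKM in Ad-Con and 134 to 145 in Ad-PDK4, with Acta2 at 76.9 to 78.7 against 33.5 to 38.0 and Tpm2 at 26.8 to 28.8 against 20.3 to 23.0, while Cald1 stood at 55.6 to 56.8 against 69.7 to 75.1 and Smtn at 8.20 to 8.43 against 8.14 to 8.95. Summed over their lists, fibroblast markers (5 of 5 at 0.5 FPKM or more) stood at 1247 to 1341 FPKM in Ad-Con and 661 to 734 in Ad-PDK4, most of it Col1a1. Col1a1, Col3a1 and Lum were lower in every Ad-PDK4 library, Dcn was higher (83.3 to 99.2 against 143 to 181 FPKM) and Pdgfra overlapped (19.9 to 21.3 against 19.0 to 20.6 FPKM). Macrophage markers summed to 15.0 to 17.9 and 5.93 to 7.45 FPKM, most of it Cd68, with 6 of 9 markers at 3 reads or fewer in every library and Ptprc, Tyrobp, Itgam and C1qa at 0. The other macrophage markers with reads lay higher in Ad-PDK4, Csf1r at 11, 23 and 35 against 56, 62 and 61 reads and Lyz2 at 1.30 to 1.68 against 1.74 to 2.24 FPKM. Epithelial markers summed to 36.4 to 38.6 and 14.8 to 16.5 FPKM, nearly all of it Krt18, with Epcam at 0. The sums of endothelial markers were 0.617 to 0.798 and 0.885 to 1.18 FPKM, and those of neuronal markers 2.08 to 2.88 and 1.87 to 1.96 FPKM, with Rbfox3 and Snap25 at 0. The part of these markers in the differences below was not tested. In bulk RNA fewer cells of a type and less RNA per cell cannot be told apart.

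Of the 64 genes, 25 passed the filter of a mean of 0.5 FPKM over all 6 libraries and were tested, 13 lay under it, 11 had 3 reads or fewer in every library and 15 had no read. Genes with an adjusted p below 0.05 are called here, from limma on log2(FPKM + 0.1) with the Benjamini-Hochberg method over all 13423 tested genes. All log2 fold changes below are on that scale, as Ad-PDK4 minus Ad-Con, so a positive value means higher in Ad-PDK4. Of the 25 tested transporter genes 7 were higher and 5 lower in Ad-PDK4, against 21.8% and 20.8% of all tested genes. After rescaling to TPM the split was 8 higher and 3 lower. Both directions together took 12 of 25 genes (48%), near the 42.7% of all tested genes. The median log2 fold change was -0.04 over the tested transporter genes and -0.0031 over all tested genes. By at least 2-fold, 2 were higher (Slc1a6 and Slc7a1) and 1 lower (Slc43a2), against 3.95% and 2.68% of all tested genes (6.63% in either direction). The FPKM of the groups did not overlap for 14 of the 25, against 54.3% of all tested genes. The study calls the libraries biological replicates without saying whether they came from separate mice, and the p-values measure the spread between these libraries.

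**Figure D1:**
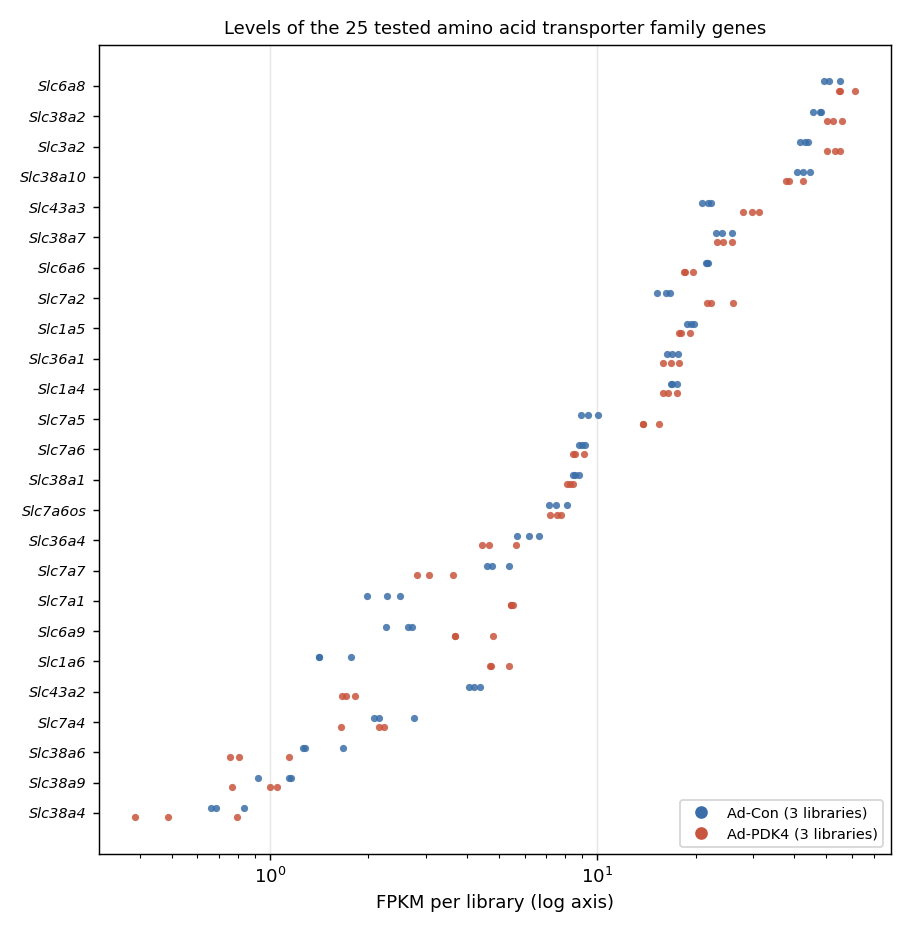
FPKM of the 25 tested genes in each library on a log axis, ordered by their mean, with 3 Ad-Con points in blue and 3 Ad-PDK4 points in red on each row. Levels run from a mean of 0.640 FPKM for Slc38a4 to 54.5 FPKM for Slc6a8, and the groups stand furthest apart for Slc1a6, Slc7a1 and Slc43a2.

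Slc6a8, Slc38a2, Slc3a2 and Slc38a10 were the most abundant transporter mRNAs per gene length in both groups. Their group means ran from 42.7 to 51.9 FPKM in Ad-Con and from 39.6 to 57.1 FPKM in Ad-PDK4. Slc6a8, the creatine carrier, stood at 51.9 ± 3.10 (SD, n = 3) and 57.1 ± 3.58 FPKM and was not called (log2 fold change 0.14, 95% interval -0.01 to 0.29, adjusted p = 0.13). In Ad-Con the order was Slc6a8, Slc38a2, Slc3a2 and Slc38a10, and the libraries of the last pair overlapped. In Ad-PDK4 the libraries of Slc6a8, Slc3a2 (53.0 FPKM) and Slc38a2 (52.9 FPKM) overlapped, and Slc38a10 was below them. Summed over all transporter genes without Slc7a6os, the level was 378 ± 8.22 FPKM in Ad-Con and 413 ± 10.9 FPKM in Ad-PDK4.

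For the genes changed by 2-fold or more, the reference holds a promoter window, and the bases upstream of the annotated start are shown because they are the stretch in which response elements of the amino acid and stress pathways were looked for. Slc36a4 is shown as the gene with the largest fall at a mean of 5 FPKM or more among those with a window, and Slc7a7 because it holds an amino acid response element core. The sequences are from RefSeq on GRCm38.p6, run 5′ to 3′ on the strand of the gene and end at the base before the start. The Slc7a7 window belongs to a RefSeq start that lies upstream of the gene as the table annotates it, and the bases after that start were not found in its GENCODE M21 transcripts. Capitals mark a motif match, and the windows of Slc1a6, Slc43a2 and Slc36a4 held none.
Slc1a6 (chr10:78780246-78780495, plus strand): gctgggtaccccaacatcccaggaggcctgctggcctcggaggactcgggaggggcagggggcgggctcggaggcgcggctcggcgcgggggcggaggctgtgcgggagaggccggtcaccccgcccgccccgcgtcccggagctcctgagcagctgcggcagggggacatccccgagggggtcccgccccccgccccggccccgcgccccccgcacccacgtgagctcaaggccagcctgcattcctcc
Slc7a1 (chr5:148399905-148400154, minus strand): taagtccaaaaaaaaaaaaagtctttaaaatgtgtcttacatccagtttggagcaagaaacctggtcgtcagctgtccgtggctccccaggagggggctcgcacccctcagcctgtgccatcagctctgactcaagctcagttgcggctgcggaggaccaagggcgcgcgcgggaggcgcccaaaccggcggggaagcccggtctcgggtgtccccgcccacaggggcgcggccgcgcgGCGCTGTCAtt
Slc43a2 (chr11:75531444-75531693, plus strand): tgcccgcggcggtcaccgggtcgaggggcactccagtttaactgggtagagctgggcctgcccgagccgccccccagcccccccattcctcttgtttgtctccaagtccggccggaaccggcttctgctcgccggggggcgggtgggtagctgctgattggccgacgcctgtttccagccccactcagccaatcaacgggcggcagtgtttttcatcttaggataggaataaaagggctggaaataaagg
Slc36a4 (chr9:15709488-15709737, plus strand): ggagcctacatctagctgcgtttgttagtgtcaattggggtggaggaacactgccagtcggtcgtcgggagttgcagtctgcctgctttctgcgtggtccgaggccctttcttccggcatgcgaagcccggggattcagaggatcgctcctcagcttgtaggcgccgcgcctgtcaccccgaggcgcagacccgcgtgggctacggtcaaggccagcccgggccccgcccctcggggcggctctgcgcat
Slc7a7 (chr14:54417945-54418194, minus strand): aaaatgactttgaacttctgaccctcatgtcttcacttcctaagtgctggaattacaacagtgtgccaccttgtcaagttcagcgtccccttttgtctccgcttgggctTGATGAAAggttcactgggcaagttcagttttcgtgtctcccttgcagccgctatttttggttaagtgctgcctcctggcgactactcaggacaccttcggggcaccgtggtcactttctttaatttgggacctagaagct

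RefSeq windows were found for 46 of the 64 genes and for 17 of the 25 tested genes, which had 28 windows between them. Slc7a5 was among the tested genes without a window. Bases after the start were not searched, so a gene without a match may still hold a motif elsewhere. Each motif was searched on both strands in the 250 bases before each start, and the letters of these motifs may overlap. The amino acid response element core TGATGNAA, bound by ATF4 with its C/EBP partners, was in 2 of the 28 windows (7.14%), both of Slc7a7, and in 3.45% of all 32851 windows. In Slc7a7 it read TGATGAAA with its first base at position -141 from the start shown above, and TGATGCAA at -243 from another start of the gene. The antioxidant response element core TGACNNNGC was in 5 of 28 windows (17.9%) and in 10.2% of all windows. It lay in windows of Slc38a2, Slc6a9, Slc7a1 and Slc7a6, and in Slc7a1 it was on the opposite strand with its first base at -11. The interferon-stimulated response element core GAAANNGAA was in 7.14% of the 28 windows, in Slc38a4 and Slc38a9, and in 7.13% of all windows. The STAT site TTCNNNGAA was in 7.14% of the 28 windows, in Slc38a9 and in a second window of Slc7a1 with its first base at -146, and in 7.02% of all windows. A match describes the letters of a window and not a bound site.

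The main carriers of cationic amino acids rose. Slc7a1 (CAT1), the widespread high-affinity carrier of arginine, lysine and ornithine, stood at 2.50, 2.28 and 1.99 FPKM in the Ad-Con libraries and at 5.45, 5.45 and 5.53 FPKM in the Ad-PDK4 libraries, from 586, 461 and 415 against 1144, 1099 and 1408 reads. Every Ad-PDK4 library was above every Ad-Con library, and the mean rose 2.43-fold (log2 fold change 1.25, SE 0.10, adjusted p = 4.4e-05). Slc7a2 (CAT2), the carrier that in other cells is induced together with nitric oxide synthase, stood at 16.0 ± 0.749 FPKM in Ad-Con and 23.3 ± 2.33 FPKM in Ad-PDK4, and rose 1.46-fold without overlap (log2 fold change 0.54, SE 0.08, adjusted p = 0.0012). Slc7a2 was the more abundant of both, with 75.9 ± 1.82% and 74.7 ± 2.63% of the summed FPKM of Slc7a1 to Slc7a4, while the share of Slc7a1 was 10.7 ± 0.669% in Ad-Con and 17.6 ± 0.947% in Ad-PDK4. The sum over the cationic branch was 21.1 ± 1.18 FPKM in Ad-Con and 31.2 ± 1.99 FPKM in Ad-PDK4.

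Slc7a4, a relative for which amino acid transport has not been shown, was not called at 2.33 ± 0.370 and 2.01 ± 0.318 FPKM (log2 fold change -0.21, 95% interval -0.57 to 0.16, adjusted p = 0.33). Its exons overlap those of P2rx6, on the other strand, over 13.3% of their bases, and P2rx6 fell (log2 fold change -1.31, adjusted p = 0.00024). Whether reads were assigned by strand is not given in the sources used here, so reads of such overlapping genes cannot be told apart. Slc7a3 (CAT3) lay under the filter with 38, 35 and 34 reads in Ad-Con and 24, 32 and 24 reads in Ad-PDK4. Slc7a14, a lysosomal relative, had at most 1 read in any library.

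Slc3a2, the heavy chain, rose together with the light chain Slc7a5. Slc3a2 stood at 43.2, 41.5 and 44.2 FPKM in Ad-Con and at 53.2, 55.3 and 50.5 FPKM in Ad-PDK4, without overlap, and rose 1.23-fold (log2 fold change 0.30, SE 0.05, adjusted p = 0.0028). Slc7a5 (LAT1), which with Slc3a2 imports leucine and other large neutral amino acids in exchange for glutamine, stood at 10.0, 9.38 and 8.90 FPKM in Ad-Con and at 13.8, 15.5 and 13.8 FPKM in Ad-PDK4. It rose 1.52-fold without overlap (log2 fold change 0.60, SE 0.07, adjusted p = 4e-04). In summed FPKM of the 6 light chains, Slc7a5 made up 39.8 ± 1.52% in Ad-Con and 53.9 ± 1.69% in Ad-PDK4.

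Of the y+L light chains, which export cationic amino acids in exchange for neutral ones and sodium, Slc7a7 fell and Slc7a6 did not pass the test. Slc7a7 (y+LAT1) stood at 4.59, 5.36 and 4.78 FPKM in Ad-Con and at 3.63, 2.81 and 3.06 FPKM in Ad-PDK4, all below the Ad-Con libraries, and fell (log2 fold change -0.62, SE 0.11, adjusted p = 0.0031). Part of its exons overlaps Oxa1l on the other strand, a gene that was not called (log2 fold change -0.05, adjusted p = 0.61). Slc7a6 (y+LAT2) was not called at 9.01 ± 0.196 and 8.70 ± 0.371 FPKM (log2 fold change -0.05, 95% interval -0.19 to 0.09, adjusted p = 0.53). The share of the light chains held by Slc7a7 was 20.7 ± 1.72% in Ad-Con and 11.9 ± 1.83% in Ad-PDK4, and that of Slc7a6 38.0 ± 1.10% and 32.6 ± 0.521%. The ratio of Slc3a2 to the summed light chains was 1.81 ± 0.0926 in Ad-Con and 1.99 ± 0.0353 in Ad-PDK4, with library ranges of 1.74 to 1.92 and 1.95 to 2.02 that do not overlap.

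**Figure D2:**
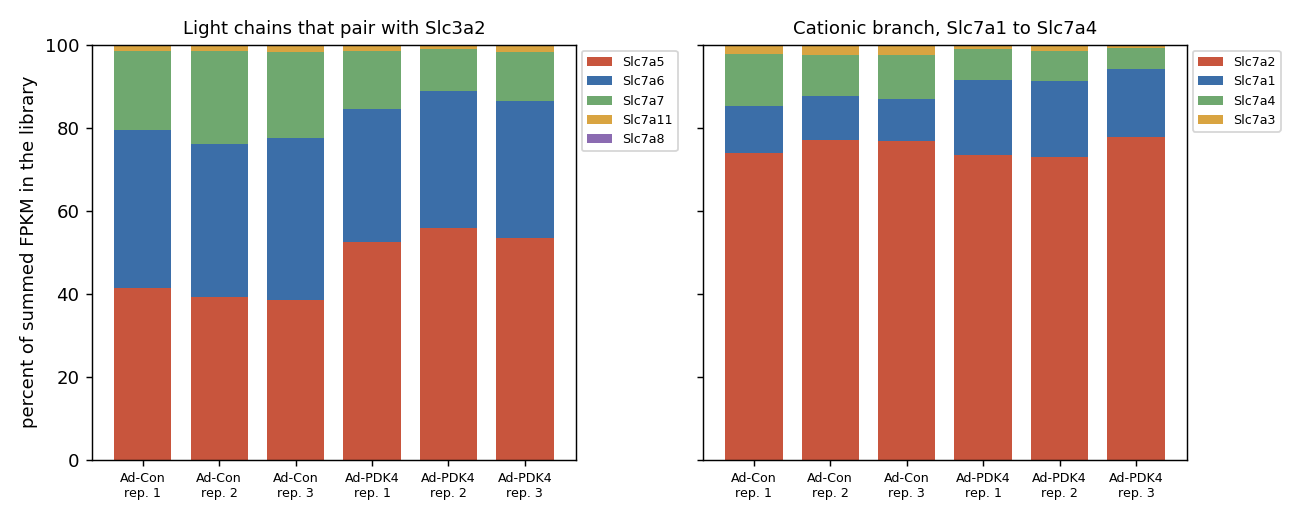
Composition of the light chains of Slc3a2 (left) and of Slc7a1 to Slc7a4 (right) as percent of their summed FPKM in each of the 6 libraries, as stacked bars. Slc7a5 takes 38.5% to 41.5% of the light chains in Ad-Con and 52.5% to 55.8% in Ad-PDK4, and Slc7a1 takes 10.1% to 11.4% and 16.5% to 18.3% of the cationic branch.

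Slc7a11 (xCT), the cystine and glutamate exchanger that feeds glutathione synthesis and a known ATF4 target, was low in these cells. It had 100, 75 and 96 reads in Ad-Con and 106, 78 and 140 reads in Ad-PDK4, at 0.353, 0.307 and 0.380 against 0.418, 0.320 and 0.455 FPKM, with overlapping groups. In a fit without the filter its log2 fold change was 0.15 (95% interval -0.40 to 0.70, adjusted p = 0.69), an interval wide enough to hold a change of the size seen for Slc7a5. Slc7a8 (LAT2) had at most 3 reads and Slc7a10 no read in any library. Of the light chains of other heavy chains or of no known partner, Slc7a15 had at most 4 reads, Slc7a9 and Slc7a13 at most 1 and Slc7a12 none. Slc3a1, the heavy chain of the cystine carrier of kidney, had 5 to 22 reads.

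Among the glutamate and aspartate carriers, Slc1a6 showed the largest rise of the tested transporters. Slc1a6 (EAAT4), best known from cerebellar Purkinje cells, had 62, 67 and 55 reads in Ad-Con and 184, 203 and 225 reads in Ad-PDK4, or 1.42, 1.77 and 1.41 against 4.70, 5.39 and 4.73 FPKM. The groups were far apart and the mean rose 3.22-fold (log2 fold change 1.63, SE 0.12, adjusted p = 2.9e-05). The gene lies at chr10:78780496-78814765 on GRCm38 and its exons overlap no other gene. The other carriers of this branch were rare, with 5 to 34 reads for Slc1a2 and 4 to 10 for Slc1a3, the carriers of astrocytes. Slc1a1 had at most 1 read and Slc1a7 none.

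The neutral carriers of Slc1 showed no difference past the test. Slc1a5 (ASCT2), a main entry of glutamine into growing cells, stood at 19.8, 19.4 and 18.8 FPKM in Ad-Con and at 17.8, 19.3 and 18.0 FPKM in Ad-PDK4, with overlapping groups (log2 fold change -0.07, 95% interval -0.20 to 0.05, adjusted p = 0.32). Slc1a4 (ASCT1), which carries serine and alanine, gave a log2 fold change of -0.04 (95% interval -0.17 to 0.09, adjusted p = 0.63). For both, the interval leaves room for a difference of at most 0.20 on the log2 scale in either direction.

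Of the 7 tested Slc38 carriers 1 was lower and none higher, against 21.8% higher and 20.8% lower among all tested genes. Slc38a2 (SNAT2), the carrier of small neutral amino acids that starvation induces, stood at 45.7, 48.0 and 48.5 FPKM in Ad-Con and at 52.7, 50.2 and 55.9 FPKM in Ad-PDK4. The groups did not overlap, but the difference just missed the test (log2 fold change 0.16, 95% interval 0.03 to 0.29, adjusted p = 0.0515), and it passed in 4 of 16 alternative settings (adjusted p from 0.019 to 0.29), among them without Ad-PDK4 replicate 2 (0.024). Slc38a1 (SNAT1), a glutamine carrier, stood at 8.78, 8.58 and 8.46 FPKM in Ad-Con and at 8.07, 8.27 and 8.41 FPKM in Ad-PDK4, apart by a narrow gap and not called (log2 fold change -0.06, 95% interval -0.19 to 0.07, adjusted p = 0.43). Slc38a9, the lysosomal carrier through which arginine signals to mTORC1, stood at 1.16, 0.921 and 1.15 FPKM in Ad-Con and at 1.0, 0.766 and 1.05 FPKM in Ad-PDK4, with overlap (log2 fold change -0.18, 95% interval -0.62 to 0.26, adjusted p = 0.48). The sum over Slc38 was 126 ± 2.31 FPKM in Ad-Con and 128 ± 1.61 FPKM in Ad-PDK4.

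Slc38a6 was the member that was lower, at 1.67, 1.27 and 1.28 FPKM in Ad-Con and 1.14, 0.756 and 0.803 FPKM in Ad-PDK4 without overlap (log2 fold change -0.60, SE 0.20, adjusted p = 0.0452). This value is uncertain, because 83.4% of its longest transcript shares words of 50 bases with 80 other genes, and because the call held in only 8 of 15 alternative settings (adjusted p from 0.0021 to 0.15). It was lost without Ad-Con replicate 1, 2 or 3 (adjusted p = 0.15, 0.064 and 0.075) and without Ad-PDK4 replicate 2 or 3 (0.12 and 0.11). Slc38a7, a lysosomal glutamine exporter, gave 0.01 (95% interval -0.14 to 0.16), Slc38a10 -0.11 (-0.25 to 0.04) and Slc38a4 -0.37 (-1.05 to 0.31) on the log2 scale, none called. Slc38a10 was called lower only without Ad-PDK4 replicate 2 (adjusted p = 0.0485, range over its 16 alternatives 0.0485 to 0.46). Slc38a3, Slc38a5, Slc38a8 and Slc38a11 had 3 reads or fewer in every library.

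Slc43 held the largest fall and a rise. Slc43a2 (LAT4), which lets leucine, phenylalanine and other neutral amino acids pass by facilitated diffusion, stood at 4.38, 4.07 and 4.20 FPKM in Ad-Con and at 1.71, 1.66 and 1.82 FPKM in Ad-PDK4, from 895, 717 and 765 against 313, 292 and 403 reads. Every Ad-PDK4 library was below every Ad-Con library, and the Ad-Con mean was 2.44-fold that of Ad-PDK4 (log2 fold change -1.24, SE 0.09, adjusted p = 2.6e-05). An antisense gene, Gm45606, overlaps 9.18% of its exon bases and had at most 17 reads in any library. Slc43a3, whose known substrates are purine bases, stood at 21.7 ± 0.642 FPKM in Ad-Con and 29.6 ± 1.67 FPKM in Ad-PDK4 and rose 1.37-fold without overlap (log2 fold change 0.45, SE 0.06, adjusted p = 6e-04). Slc43a1 (LAT3) had 11 to 22 reads. Among the carriers of leucine and phenylalanine, Slc7a5 was higher while Slc43a2 was lower in the same libraries.

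**Figure D3:**
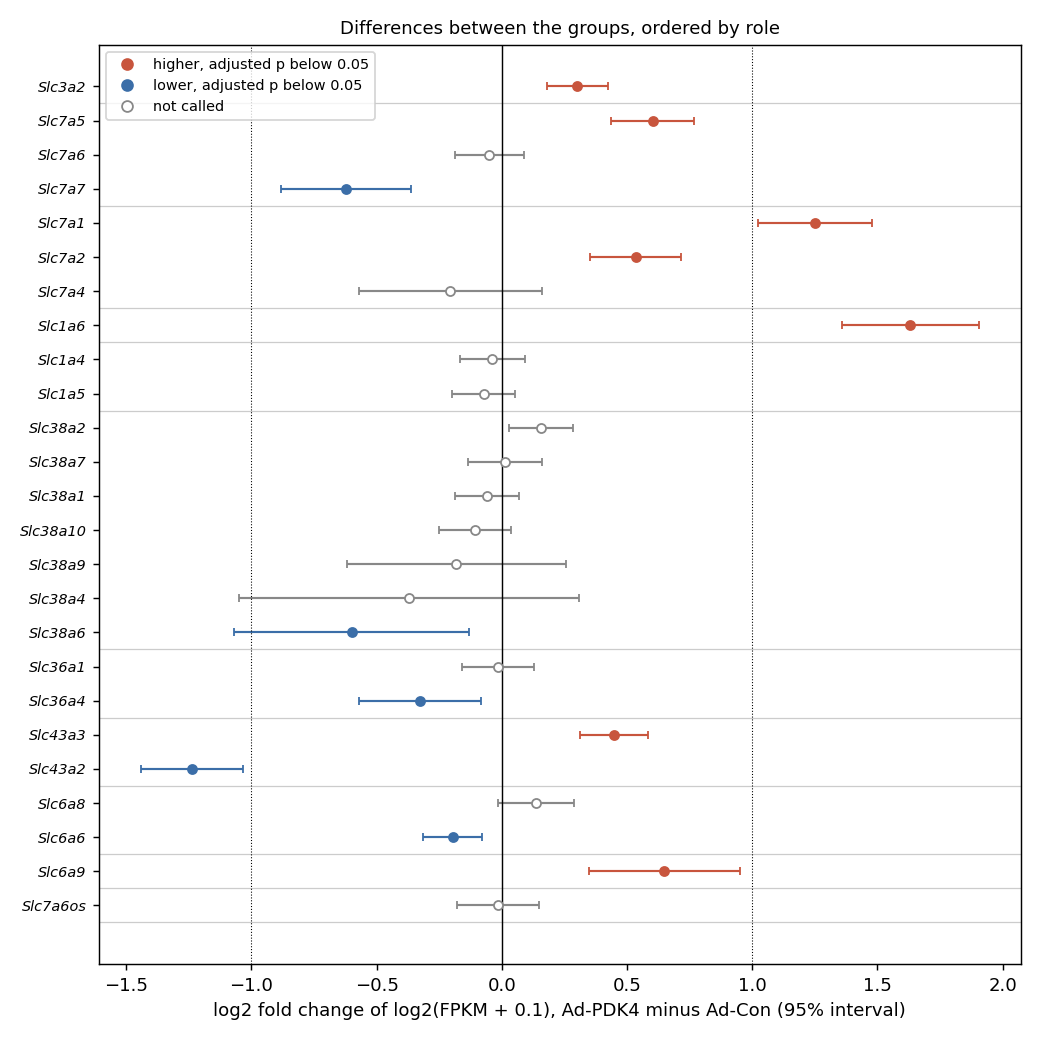
Log2 fold change of log2(FPKM + 0.1), Ad-PDK4 minus Ad-Con, with its 95% interval from limma for the 25 tested genes, in blocks by role from the heavy chain Slc3a2 to Slc7a6os, filled where the adjusted p was below 0.05 (red higher, blue lower) and open where it was not. The dotted lines mark 2-fold, which Slc1a6 (1.63), Slc7a1 (1.25) and Slc43a2 (-1.24) pass.

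Of the lysosomal and plasma membrane Slc36 carriers, Slc36a1 (PAT1) was not called at 17.0 ± 0.669 and 16.8 ± 0.965 FPKM (log2 fold change -0.02, 95% interval -0.16 to 0.13, adjusted p = 0.86). Slc36a4 (PAT4), a carrier of proline and tryptophan, stood at 6.19 ± 0.471 and 4.93 ± 0.634 FPKM and was lower without overlap (log2 fold change -0.33, SE 0.11, adjusted p = 0.038). That call held in 9 of 16 alternative settings (adjusted p from 0.0061 to 0.12) and was lost without Ad-Con replicate 1 or 3 (adjusted p = 0.09 and 0.12) and without Ad-PDK4 replicate 1 or 2 (0.12 and 0.096). Slc36a2 had at most 4 reads and Slc36a3 none.

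In the Slc6 family, whose carriers use sodium and chloride, 3 genes passed the filter (Slc6a8, Slc6a9 and Slc6a6). Slc6a9 (GlyT1), a glycine carrier, had 276, 204 and 253 reads in Ad-Con and 344, 433 and 418 reads in Ad-PDK4, or 2.64, 2.26 and 2.71 against 3.68, 4.81 and 3.68 FPKM. It rose 1.60-fold without overlap (log2 fold change 0.65, SE 0.13, adjusted p = 0.0051). Exons of genes on the other strand overlap 30.3% of its exon bases, namely those of B4galt2, which was not called (log2 fold change -0.05, adjusted p = 0.74), Ccdc24 with at most 2 reads and Gm17114 with none. Slc6a6 (TauT), the taurine carrier, stood at 21.6 ± 0.166 and 18.9 ± 0.705 FPKM and was lower by a small step without overlap (log2 fold change -0.20, SE 0.05, adjusted p = 0.015). The call on Slc6a6 was lost without Ad-Con replicate 3 (adjusted p = 0.0537) and without Ad-PDK4 replicate 1 (0.067), and held in the other 14 of 16 alternative settings (adjusted p from 0.004 to 0.067).

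Under the filter, Slc6a15 (B0AT2), a carrier of branched-chain amino acids and proline in brain, had 51, 53 and 68 reads in Ad-Con and 18, 17 and 36 reads in Ad-PDK4, with every Ad-PDK4 library below the Ad-Con libraries. The noradrenaline carrier Slc6a2 had 13, 9 and 12 reads in Ad-Con and 2, 0 and 2 in Ad-PDK4, which lies at the floor of 3 reads. Its Ad-Con mean, itself from few reads, was 3.84-fold the level of 3 reads in each Ad-PDK4 library. In the fit without the filter both were called lower, Slc6a15 at an adjusted p of 0.0496 and Slc6a2 at 0.042. Slc6a17 gave 30 to 49 reads, and Slc6a4 and Slc6a7 at most 4. The other Slc6 genes, among them the GABA carriers Slc6a11 and Slc6a13 and the intestinal and renal carriers Slc6a14, Slc6a18 and Slc6a19, had 3 reads or fewer in every library.

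The response to amino acid shortage was then described by a list of 19 genes of the ATF4 arm, all of which were tested. Of these, 12 were higher, 4 were lower and 3 were not called, with a median log2 fold change of 0.34. Among all tested genes 21.8% were higher and 20.8% lower, 42.7% in either direction. The list is not specific to amino acid shortage. Its rises include Eif2ak2, a kinase that senses double-stranded RNA (log2 fold change 1.51, adjusted p = 5.5e-07). Ddit3 (CHOP) rose from 48.5 ± 0.532 to 193 ± 11.4 FPKM (log2 fold change 1.99, adjusted p = 1.5e-07), next to Atf3 (1.99, 1.1e-05), Chac1 (1.83, 8.3e-06), which degrades glutathione, and Trib3 (1.39, 6.2e-06), a brake on ATF4. Asns, which makes asparagine, rose by 0.64 on the log2 scale (adjusted p = 0.0012). Atf4 itself was not called at 103 ± 6.15 and 95.2 ± 4.34 FPKM (log2 fold change -0.12, adjusted p = 0.15). The largest falls were those of Ddit4 (-0.65, 0.0076), Vldlr (-0.48, 0.00046) and Eif2ak3 (-0.41, 0.0056), the kinase PERK. Among the carriers known to belong to this response, Slc7a5, Slc7a1 and Slc3a2 were higher, Slc38a2 just missed the test, and Slc1a4, Slc1a5 and, without the filter, Slc7a11 did not pass it.

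Of 18 tested enzymes of amino acid synthesis 6 were higher, 6 lower and 6 not called, against 21.8% higher and 20.8% lower among all tested genes, with a median log2 fold change of 0.04. The largest rises were those of Cth (1.04, adjusted p = 0.03), which makes cysteine, Mthfd2 (0.74, 0.00011), of mitochondrial folate metabolism, and Asns. The call on Cth, which had 13 to 25 reads in Ad-Con and 34 to 59 in Ad-PDK4, was lost without Ad-Con replicate 2 or 3 (adjusted p = 0.069 and 0.06) or Ad-PDK4 replicate 1 (0.12). Glul (glutamine synthetase) fell the most (-0.89, 6.1e-06), followed by Pycr1 (-0.65, 0.008), of proline synthesis, and Gpt2 (-0.26, 0.018). The call on Gpt2 was lost without Ad-Con replicate 1 or 2 (adjusted p = 0.07 and 0.06) or Ad-PDK4 replicate 1 (0.0534).

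Among genes that use arginine, tryptophan, glutamine and cysteine, 10 of 18 were tested, of which 3 were higher, 3 lower and 4 not called (median log2 fold change 0.06), against 42.7% called among all tested genes. Nos2, the inducible nitric oxide synthase that uses arginine, had 0 reads in every Ad-Con library and 59, 44 and 84 reads in Ad-PDK4, or 0.735, 0.570 and 0.862 FPKM. Its Ad-PDK4 mean was 19.8-fold the level of a floor of 3 reads in each Ad-Con library. Arg1, an arginase that competes for the same substrate, had 31, 22 and 23 reads in Ad-Con and 12, 14 and 16 in Ad-PDK4, and Arg2 at most 4. Both Nos2 and Arg1 lay under the filter and were called without it (adjusted p = 0.00045 and 0.0471). Odc1, the first enzyme of polyamine synthesis from ornithine, rose (0.88, 1.3e-05), whereas Ass1, which rebuilds arginine from citrulline, fell (-0.70, 5.7e-05) and its partner Asl rose (0.22, 0.02). Gss (-0.43, 0.0041), of glutathione synthesis, and Glud1 (-0.28, 0.0022) fell. Ido1, which degrades tryptophan, was not called at 8 to 28 reads (0.22, adjusted p = 0.7). The call on the small rise of Asl was lost without Ad-Con replicate 1 (adjusted p = 0.075) and with quantile normalization (0.0501).

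**Figure D4:**
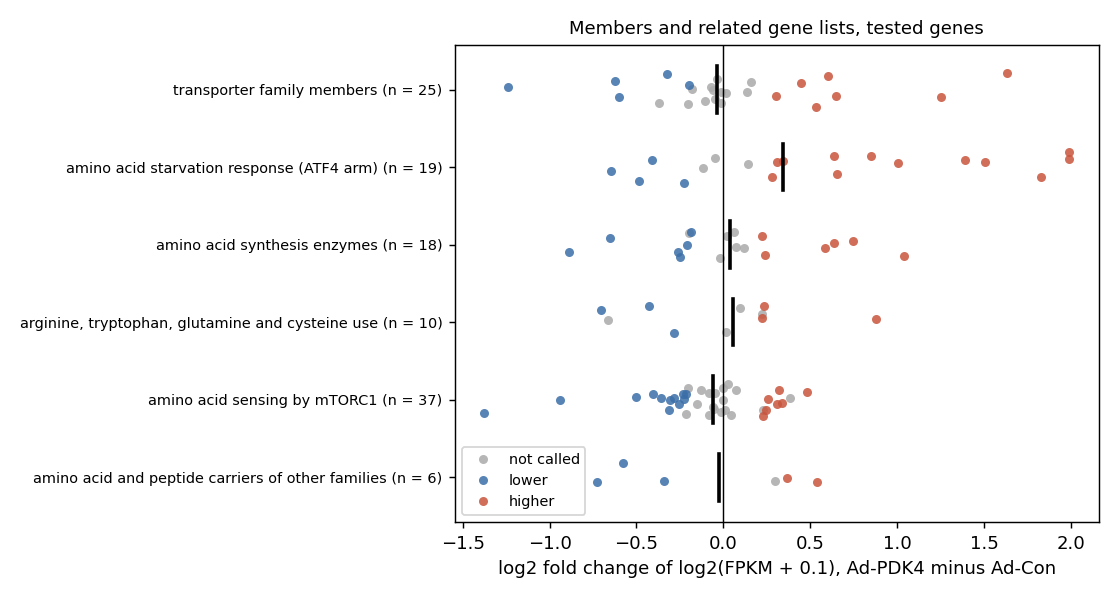
Log2 fold changes of the tested transporter genes and of the tested genes of 5 related lists, 1 point per gene, red higher, blue lower and grey not called, with the median of each list as a black bar. The medians lie between -0.06 and 0.06 apart from that of the ATF4 arm at 0.34.

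The genes through which amino acids reach mTORC1 all passed the filter, with 7 higher, 12 lower and 18 not called among 37. Their median log2 fold change was -0.06. Among all tested genes 21.8% were higher and 20.8% lower. Sesn1 fell the most (-1.38, adjusted p = 1.4e-06), followed by Sesn3 (-0.94, 7.6e-06), both of the Sestrin family that holds the leucine sensor, while their relative Sesn2 rose (0.31, 0.0092). Rragd (-0.50, 0.00022), a Rag GTPase, was also lower. The largest rises were those of Itfg2 (0.48, 0.0037), Rheb (0.33, 0.0023), the activator of mTORC1, and Rptor (0.32, 0.033). The call on Rptor held in 9 of 16 alternative settings. It was lost without Ad-Con replicate 1 or 3 (adjusted p = 0.074 and 0.1) or Ad-PDK4 replicate 1 or 2 (0.061 and 0.068). The same held without the filter (0.071), with quantile normalization (0.058) and with plain moderation (0.058). Of 13 amino acid and peptide carriers of other families, 6 were tested and 2 were higher, 3 lower and 1 not called (median log2 fold change -0.02), against 42.7% called among all tested genes. Slc15a4, a lysosomal histidine and peptide carrier (0.54, 0.00055), and Slc16a10, a carrier of aromatic amino acids (0.36, 0.011), rose. Mfsd12 (-0.73, 0.0018), which takes cysteine into lysosomes, Slc17a5 (-0.58, 0.00012), the lysosomal exporter of sialic acid, and Ctns (-0.34, 0.0032), the lysosomal cystine exporter, fell.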

How the data were processed

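Sequencing was paired-end on an Illumina instrument. The labels name a SMARTER kit and the study's methods a NEBNext Ultra kit. Per the labels, the authors' processing notes name CASAVA 1.8, fastp, HISAT2 2.0.5, featureCounts 1.5.0-p3 and DESeq2 1.20.0. The annotation release and strand setting are not given in the sources used here. The notes name GRCm39, but the coordinates of 98.33% of 54495 matched genes were those of GENCODE M21 (GRCm38), so GRCm38 is used. The authors deposited FPKM per gene and library, without pooling. FPKM times gene length gave whole reads for 100% of values (tolerance 0.01), and FPKM had been scaled by median-of-ratios size factors. The floor of 3 reads covers counting error only.

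Both groups were compared on the log2(FPKM + 0.1) scale in R 4.3.3 by limma 3.58.1 (trend and robust moderation, two-sided, no covariates, all 6 libraries), with Benjamini-Hochberg adjustment over genes whose FPKM averaged 0.5 or more. The method was tested on simulated data with far fewer changed genes than were called here and the same spread for every gene. That test therefore does not give the error rate in these data. Intervals are 95%. The members, lists and promoter motifs were chosen with earlier results of these data known, so no p is given over a list. Full values are given for transporters called at 1.5-fold or more and for 8 fixed ones. In each list, the 3 largest rises and falls and 10 fixed genes are named. A few genes that fall under these rules are not reported here. The promoters of Slc1a6, Slc7a1, Slc43a2 and Slc7a7, and Slc6a2, Slc6a15, Slc7a3, Sesn2 and the genes overlapping members, were chosen after their values were seen. Alternatives were other pseudocounts, filters and scalings, plain moderation, a replicate block, limma-voom on recovered reads and leaving out each library. Replicates differed by more than counting noise (chi-square per degree of freedom 3.99 to 10.9).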

Additional observations from a re-analysis of the deposited data

How the results depend on the processing

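Under 16 alternative settings, the 438 log2 fold changes of single tested transporter genes kept direction and call in 407, lost the call in 16, gained one in 5 and changed sign in 10. Other filters, plain moderation and the replicate block leave the fold change as it is, so only the call could change there. Rescaling by median of ratios nearly repeats the main fit, because the FPKM had been scaled that way. The count of transporter genes higher in Ad-PDK4 was 7 or 8 in each setting but a minimum mean of 5 FPKM, which tests only 16 of these genes and gave 5. The count lower was 4 or 5, but 2 at a minimum of 5 FPKM and 3 after rescaling to TPM, and 2 to 4 when a library was left out (3 without Ad-Con replicate 1, 2 without Ad-Con replicate 3, 3 without Ad-PDK4 replicate 1). By 2-fold or more, the count higher was 1 with a pseudocount of 1 and 0 at a minimum of 5 FPKM, and the count lower was 0 in both, since a larger pseudocount shrinks the change of low genes and Slc1a6, Slc7a1 and Slc43a2 lie under 5 FPKM. Higher calls made up 58.3% of the transporter calls, but 72.7% after rescaling to TPM (51.1% and 58.0% of all tested genes) and 71.4% at the minimum of 5 FPKM. No scaling moved the median of all genes past 0.04 in either direction (0.037 after rescaling to TPM, -0.035 with quantile normalization). Each scaling, like the one already in the FPKM, brings the libraries to a common level. A small median is therefore largely set beforehand, and it cannot show whether most genes shifted together. Without the filter, 10 of the 12 calls were shared, Slc36a4 and Slc38a6 were lost and Slc6a2 and Slc6a15 gained. The changes of sign were among uncalled genes: after rescaling to TPM, Slc1a4 (0.0032), Slc7a6os (0.0263) and Slc36a1 (0.0247), with quantile normalization Slc38a7 (-0.0495), and with a library left out Slc7a6os (range -0.0559 to 0.0340), Slc36a1 (-0.0570 to 0.0254), Slc38a7 (-0.0276 to 0.0575) and Ido1 (-0.1042 to 0.5251). The cause was not tested. Same-numbered libraries did not deviate together (correlations -0.046 to -0.0013), and with the replicate number as a block 7 transporter genes were higher and 5 lower. Uncalled genes at low FPKM can leave room for large differences. The interval of Slc38a4 ran from -1.05 to 0.31, while those of uncalled genes at 5 FPKM or more lay within -0.25 to 0.29.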
